A study of Mus musculus with 11 samples.

Results

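The NRF2 oxidative stress and heme genes are 10 genes: Nfe2l2, which encodes NRF2, Keap1, Bach1, Hmox1, Gclm, Gclc, Txnrd1, Srxn1, Nqo1 and Sqstm1, out of 21887 protein-coding genes of the RefSeq annotation. They were chosen by name and not by a rule on their values, but with earlier results of these data known. Accessible regions were taken from ATAC-seq peak lists of alveolar macrophages, the resident macrophages of the airspace, sorted from lungs of C57BL/6 mice. ATAC-seq marks open DNA by the insertions of a transposase. The naive group had 4 samples from wild-type mice that received no tumour cells. The other groups came from mice injected in the tail vein with KP or KP-GFP lung tumour cells, as a transplant, with lungs harvested 15 days (4 samples) or 30 days (3 samples) later. The labels do not say which of these cells a sample received or how old the mice were, and the design text speaks of triplicates. The labels name 1 peak list for each group, so no value has a replicate error and no test between groups was possible. Accessibility in fewer cells, lower accessibility per cell and a larger share of tags outside peaks cannot be told apart in these lists.

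NRF2 is a transcription factor that KEAP1 holds for degradation until oxidants or electrophiles modify KEAP1. Free NRF2 pairs with small MAF proteins and binds antioxidant response elements at genes for glutathione synthesis, thioredoxin recycling and heme breakdown. BACH1 is a repressor of such genes that heme removes, and Hmox1 encodes the enzyme that degrades heme. Alveolar macrophages meet oxygen, inhaled particles and red cell debris, so these genes are part of their ordinary work.

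A peak was assigned to a member when it lay inside the gene, within 1000 bp of its ends, or had a member's end as its nearest protein-coding gene end within 50 kb. This gave 21 naive, 17 day 15 and 6 day 30 peaks, in 23 separate regions. Of these regions 6 were in all 3 lists, 9 in the naive and day 15 lists, 6 in the naive list alone and 2 in the day 15 list alone. None was first seen at day 30. That list held 3352 peaks in all, and 3193 naive peaks overlapped one of them, so this absence is not read as a trait of the members. A boundary peak is one that reaches to 1000 bp or less from an end of the gene. Nfe2l2, Bach1, Hmox1, Gclm, Gclc and Srxn1 had one in the naive and day 15 lists, and Nfe2l2, Bach1 and Gclm at day 30. Over all protein-coding genes, 34.7%, 29.6% and 12.8% had such a peak (naive, then day 15, then day 30). The day 15 peak of Gclc and the day 30 peak of Nfe2l2 were weak: with only peaks of −log10 q of at least 5 they dropped out, which left 6, 5 and 2 members. The share over all genes at this cut is not given, so the drop is not read as a trait of the members.

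**Figure D1:**
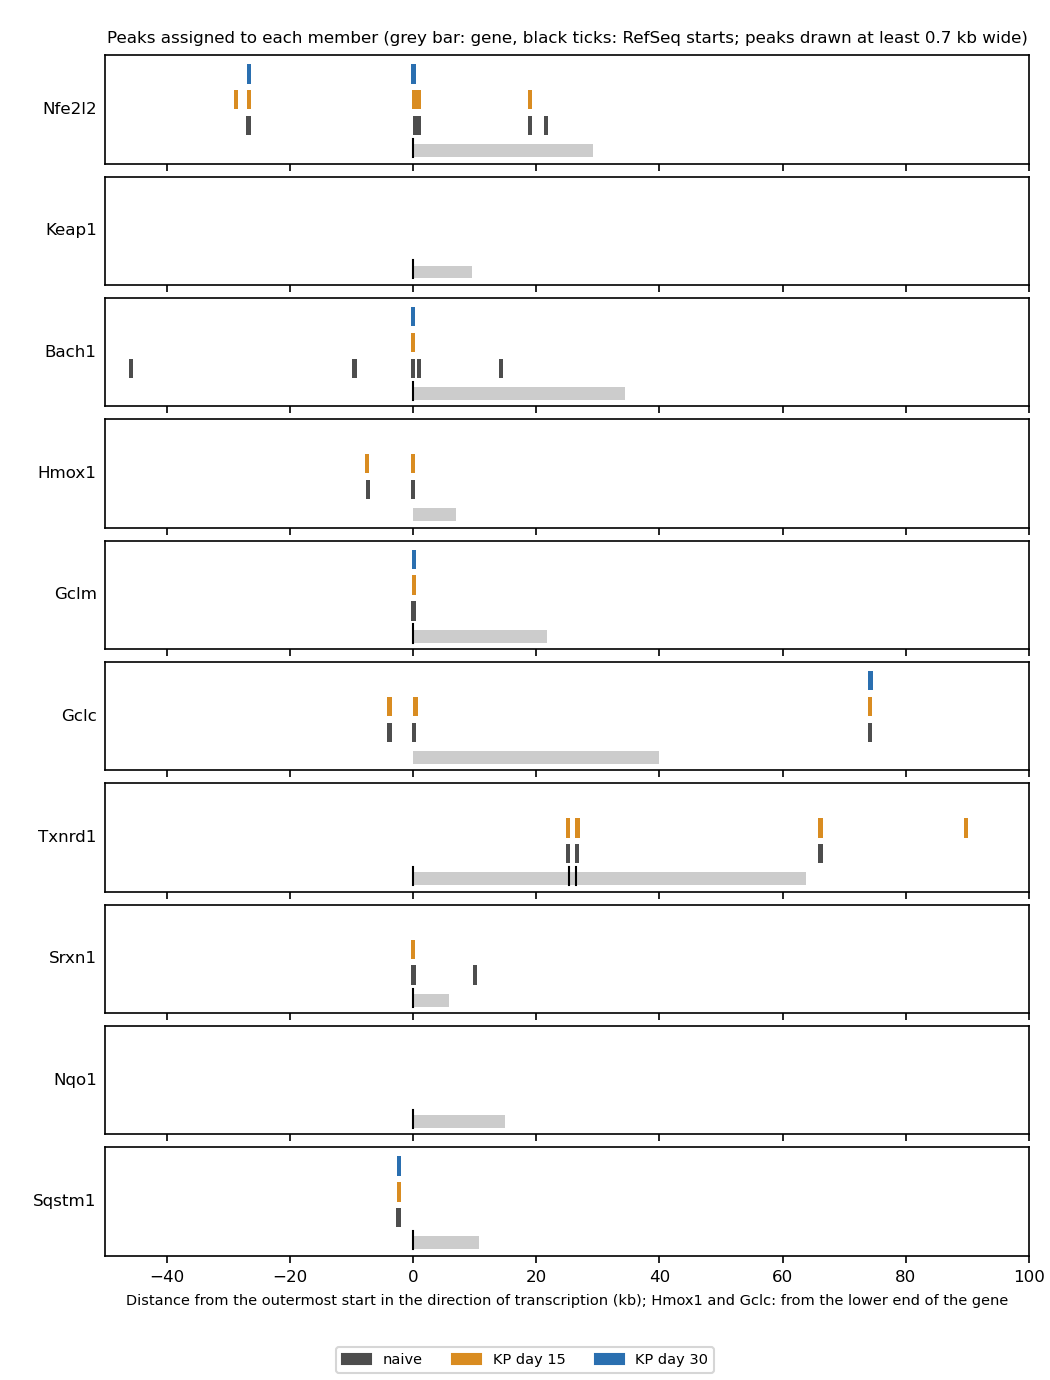
Peaks assigned to each of the 10 genes, by distance in kb from the outermost start in the direction of transcription (for Hmox1 and Gclc from the lower end of the gene), with naive peaks in grey, day 15 in orange and day 30 in blue, and short peaks widened for visibility. Keap1 and Nqo1 have no peak, Txnrd1 has its 2 inner peaks at its inner RefSeq starts, and day 30 peaks remain at Nfe2l2, Bach1, Gclm, Gclc and Sqstm1.

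The promoters below were picked by whether a peak covered the start. The starts of Nfe2l2, Bach1, Gclm and Srxn1 and an inner start of Txnrd1 lay in peaks, whereas those of Keap1 and Nqo1 did not. The Sqstm1 start also lay in no peak and is not printed. Its window held 20 CpG pairs and 63.3% G and C, within the ranges of the windows in naive peaks given below. The printed stretches are RefSeq sequences of the GRCm38.p6 build, the same coordinates as mm10. Of the 10 genes 8 had an entry, with 10 starts in all. Each runs 5′ to 3′ on the strand of the gene up to the base before the start (for Gclm, before the outermost end of the gene). The stretches are chr2:75704664-75704913 (minus strand) for Nfe2l2, chr16:87698704-87698953 (plus) for Bach1, chr3:122245307-122245486 (plus) for Gclm, chr2:152105274-152105523 (plus) for Srxn1, chr10:82858956-82859205 (plus) for Txnrd1, chr9:21239333-21239582 (minus) for Keap1 and chr8:107403206-107403455 (minus) for Nqo1. Capitals mark matches on either strand to the antioxidant response element core TGACNNNGC, to the AP-1 letters TGANTCA and to the GC box GGGCGG.
Nfe2l2: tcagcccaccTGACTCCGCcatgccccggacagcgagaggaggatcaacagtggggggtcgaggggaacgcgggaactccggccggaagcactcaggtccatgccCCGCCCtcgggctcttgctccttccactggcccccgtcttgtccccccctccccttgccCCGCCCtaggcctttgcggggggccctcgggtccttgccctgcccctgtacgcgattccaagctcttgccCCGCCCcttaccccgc
Bach1: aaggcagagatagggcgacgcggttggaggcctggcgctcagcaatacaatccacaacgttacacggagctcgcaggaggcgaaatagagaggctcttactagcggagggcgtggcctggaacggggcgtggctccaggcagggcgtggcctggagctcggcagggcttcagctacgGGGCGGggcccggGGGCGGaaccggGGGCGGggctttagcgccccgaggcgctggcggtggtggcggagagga
Gclm: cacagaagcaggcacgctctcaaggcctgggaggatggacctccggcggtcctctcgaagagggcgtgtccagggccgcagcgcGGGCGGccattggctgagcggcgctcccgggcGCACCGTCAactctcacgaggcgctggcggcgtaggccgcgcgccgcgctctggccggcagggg
Srxn1: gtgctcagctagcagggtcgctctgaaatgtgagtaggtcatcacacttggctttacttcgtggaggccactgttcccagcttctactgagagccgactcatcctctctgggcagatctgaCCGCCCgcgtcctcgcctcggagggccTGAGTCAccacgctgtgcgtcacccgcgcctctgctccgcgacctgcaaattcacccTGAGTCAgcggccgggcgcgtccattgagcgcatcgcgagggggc
Txnrd1: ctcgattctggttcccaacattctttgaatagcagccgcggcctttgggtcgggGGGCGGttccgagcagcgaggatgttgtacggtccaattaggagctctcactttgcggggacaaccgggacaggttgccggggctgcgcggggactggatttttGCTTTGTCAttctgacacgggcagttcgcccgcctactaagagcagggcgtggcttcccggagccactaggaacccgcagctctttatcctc
Keap1: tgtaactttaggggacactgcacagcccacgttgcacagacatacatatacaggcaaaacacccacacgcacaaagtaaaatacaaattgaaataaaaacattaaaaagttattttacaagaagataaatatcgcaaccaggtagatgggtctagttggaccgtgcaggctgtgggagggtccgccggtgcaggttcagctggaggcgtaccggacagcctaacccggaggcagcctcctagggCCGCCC
Nqo1: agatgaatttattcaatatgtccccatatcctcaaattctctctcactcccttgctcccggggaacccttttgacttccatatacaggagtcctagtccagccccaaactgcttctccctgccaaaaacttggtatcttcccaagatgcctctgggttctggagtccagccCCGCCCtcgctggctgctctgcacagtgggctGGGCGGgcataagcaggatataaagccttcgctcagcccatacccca

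The antioxidant response element core was found at 4 of the 10 member starts, at Nfe2l2, Gclm, Txnrd1 and Srxn1. In the table of 32851 starts, 12.4% of the 300-base windows (250 bases before to 50 after a start) held it. The match at Gclm began 134 bases before the start (chr3:122245423-122245431) and lay inside the peak of every list. At Txnrd1 it began 92 bases before the inner start, inside the naive and day 15 peaks. The Srxn1 match lay after the start, at base 29, and is outside the printed stretch. At Nfe2l2 the match began 240 bases before the start and lay outside the peaks of all 3 lists. Among the 8 members with an entry, only Srxn1 had AP-1 letters, which 7.81% of all windows held. Its matches began 102 and 45 bases before the start, both inside the naive and day 15 peaks. GC boxes were found at 8 of the 10 starts, against 35.7% of all windows, including 4 in the window of Bach1, all inside its peak in every list. The letters CCAAT were found at 2 starts (Gclm and Txnrd1), against 37.4% of all windows. Neither TGACGTCA (1.79% of windows) nor CACGTG (7.15%) occurred at a member start. A TGACNNNGC match and a TGANTCA match can share letters, but none did here. Only the fixed letters TGACNNNGC were counted as the core. Close variants were not counted, such as TGAGTCAGC at the Srxn1 match 45 bases before the start. A match describes these letters and is not a measured binding site.

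**Figure D2:**
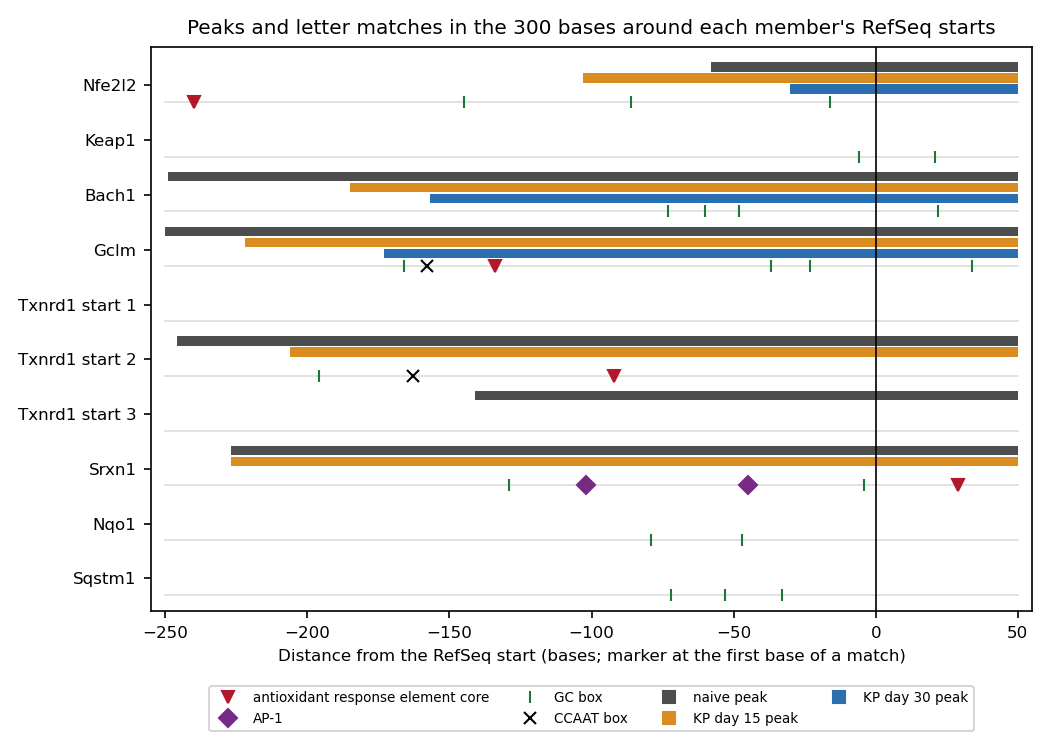
The 300 bases around each RefSeq start of the members (x axis, bases from the start), with peaks of the 3 lists as bars and letter matches as marks at their first base. Peaks cover the starts of Nfe2l2, Bach1 and Gclm in all 3 lists, and no peak reaches the starts of Keap1, Nqo1 and Sqstm1 or the outermost start of Txnrd1.

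By this measure 6, 5 and 3 of the 10 start windows overlapped a naive, day 15 and day 30 peak. Over all RefSeq windows the shares were 23.2%, 19.7% and 8.40%. The 6 windows in a naive peak held 12 to 48 CpG pairs, and the other 4 held 3 to 20, so these ranges overlapped. Their G and C content ran from 48.0% to 79.7% and from 51.3% to 63.3%, where the median of all windows was 52.7%.

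The values that follow are summit pileups, the number of extended tags over the highest point of a peak. They were recovered from the authors' fold and p-value. The lists differ in depth: the genome-wide background was 39.2, 93.5 and 82.2 tags per 10 kb in the naive, day 15 and day 30 lists. Pileups are therefore also compared after division by this background, written as pileup per depth. A list with a larger share of tags outside peaks has lower values by this measure at every region. Over all shared regions the median ratio to naive was 0.449 at day 15 and 0.30 at day 30. A member ratio below 1 is thus not by itself a loss of accessibility. Intervals at 95% cover counting error over tags only, and a summit is the highest point of a called peak, which favours high values in every list. The summit of a region can lie at a different base in each list. The lowest pileup of any peak was 6, 9 and 9 tags, so absence from a list means below the authors' threshold and not closed.

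Nfe2l2 (chr2:75675513-75704663, minus strand) held the highest day 15 pileup of the 10 genes. Its widest peak began at the promoter and ran into the gene, at chr2:75703434-75704721 in the naive list and at chr2:75703415-75704766 at day 15, and at day 30 a short peak remained over the start at chr2:75704427-75704693. The summit pileup there was 24 naive tags (95% interval 15.4 to 35.7), 39 at day 15 (27.7 to 53.3) and 16 at day 30 (9.15 to 26.0). The summits lay 554, 156 and 107 bases after the start in these lists, so the ratios compare different points of the region. Per depth, day 15 was 0.682 of naive (0.40 to 1.19), where the median over all regions shared by these lists was 0.449. Of the shared regions 91.6% had a ratio at or below it, as did 99.0% of the 299 regions with the same naive pileup of 24. At day 30 the ratio to naive was 0.318 (0.158 to 0.624), close to the median of 0.30. From day 15 to day 30 it was 0.467 (0.243 to 0.854), below the median of 0.711, and 4.71% of the regions shared by those lists were as low.

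A peak inside Nfe2l2, with its summit 18950 bases after the start in the naive list (chr2:75685516-75685901), had 25 naive and 34 day 15 tags and was absent at day 30. Its day 15 to naive ratio per depth was 0.571 (0.331 to 0.997). A distal peak with its naive summit 26661 bases before the start, at chr2:75731174-75731584, was called in every list with 12, 18 and 17 tags. Its ratios to naive were 0.629 (0.287 to 1.43) at day 15 and 0.676 (0.304 to 1.55) at day 30. The day 30 ratio was at or above 97.8% of the regions shared by the naive and day 30 lists. Against the 54 of these with the same naive pileup of 12, it was at or above 88.9%. The noncoding gene E030042O20Rik lies between this peak and Nfe2l2. The day 15 list alone had a peak with its summit 28684 bases before the start (chr2:75733186-75733527, 16 tags), and the naive list alone had a weak one inside the gene (chr2:75682962-75683228, 13 tags, fold 4.43).

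Keap1 (chr9:21229730-21239332), whose product targets NRF2 for degradation, had no assigned peak in any list. Bach1 (chr16:87698954-87733346, plus strand) had 5 naive peaks, of which only the promoter peak was called later. That peak lay at chr16:87698705-87699132 in the naive list, with its summit 11 bases after the start. It held 18 naive tags (10.7 to 28.4), 28 at day 15 (18.6 to 40.5) and 24 at day 30 (15.4 to 35.7). The authors' fold over local background was 6.42, 7.51 and 8.74 in the naive, day 15 and day 30 lists. Among all peaks of its own list, it was at or above 52.0%, 84.2% and 95.6% by p-value, though such ranks come from lists of different length. Per depth it was 0.653 of naive at day 15 (0.348 to 1.25) and 0.636 at day 30 (0.331 to 1.24), against medians of 0.449 and 0.30. At day 30 97.2% of shared regions were at or below it. The 4 other Bach1 peaks were in the naive list alone, with summits 45806 and 9498 bases before the start and 944 and 14218 bases after it, with 13, 9, 15 and 14 tags. The one 45806 bases before the start was nearer to an end of Gm22808 (31879 bp) than to Bach1 (45685 bp).

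Hmox1 (chr8:75093618-75100593) had a boundary peak across the lower end of the gene, at chr8:75093421-75093834 in the naive list, and a distal peak at chr8:75086109-75086436. The boundary peak held 23 tags in the naive list and 23 at day 15, and the distal one 21 and 19. Per depth the ratios were 0.42 (0.225 to 0.782) and 0.380 (0.193 to 0.742), below the median of 0.449. Neither was called at day 30. The distal peak lay 7182 bp below the gene, with no protein-coding gene between. An end of Gm2059, which is not a protein-coding gene, was nearer to it, at 5957 bp.

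Gclm and Gclc encode the modifier and catalytic subunits of the enzyme that limits glutathione synthesis. The Gclm peak (chr3:122245244-122245897 in the naive list) spanned the start of the gene and was called in all 3 lists, with 25, 23 and 22 tags. It also covers an end of the noncoding gene Gm46822. Its ratio per depth was 0.386 (0.209 to 0.709) at day 15 and 0.42 (0.226 to 0.776) at day 30, below the median at day 15 and above it at day 30. From day 15 to day 30 the ratio was 1.09 (0.578 to 2.04), at or above 93.7% of regions. The Gclm summit lay 148 bases before the RefSeq start in the naive list and 63 before it at day 15. At day 30 it lay 196 bases after that start, so these ratios compare different points. Gclc (chr9:77754535-77794489) had a naive boundary peak of 19 tags at chr9:77754451-77754989 across its lower end. The day 15 peak there, 18 tags at chr9:77754827-77755070, began 292 bp inside the gene, and the day 30 list had none. Its ratio of 0.397 (0.197 to 0.80) was below the median.

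Another Gclc peak, 3609 bp below the gene at chr9:77750468-77750926, had 16 naive and 22 day 15 tags, a ratio of 0.577 (0.289 to 1.17). The peak nearest to Gclc that was called in every list lay 34056 bp above the gene, at chr9:77828545-77828980, with 25, 21 and 12 tags. Its fold of 11.0 was the highest of the 21 naive member peaks, and the later lists had 7.14 and 4.92. The ratios of 0.352 (0.188 to 0.656) at day 15 and 0.229 (0.105 to 0.473) at day 30 were the lowest among the members at each time. The noncoding gene Gm34654 spans this peak, so its link to Gclc rests on distance alone.

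Txnrd1 (chr10:82833951-82897724, plus strand), the cytosolic thioredoxin reductase, had no boundary peak by its outermost ends. RefSeq lists 3 starts for it, and its peaks lay at the inner ones. The peak at chr10:82858960-82859288 covered the start at 82859206, with 18 tags in the naive list and 26 at day 15. The peak at chr10:82860200-82860964 covered the start at 82860341 in the naive list, with 25 tags. At day 15 it held 34 and began after that start. Their ratios per depth were 0.606 (0.320 to 1.17) and 0.571 (0.331 to 0.997), both above the median. A peak 2159 bp above the gene (chr10:82899883-82900371) had 16 and 22 tags, a ratio of 0.577 (0.289 to 1.17), and the day 15 list alone had one at chr10:82923594-82923830 with 15 tags. None was called at day 30. The peak at 82859206 also lies at an end of the noncoding gene Gm38560, and the short gene Eid3 lies inside Txnrd1. The peak at chr10:82923594-82923830 was nearer to an end of Gm33781 (3173 bp) than to Txnrd1 (25870 bp).

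Srxn1 (chr2:152105524-152111376, plus strand), sulfiredoxin, which repairs over-oxidised peroxiredoxins, had its promoter peak at chr2:152105297-152105883 with 23 naive and 24 day 15 tags, a ratio of 0.438 (0.237 to 0.812), and none at day 30. A naive peak of 10 tags lay 4163 bp above the gene. Nqo1 (chr8:107388225-107403205), a quinone reductase often used as a readout of NRF2, had no assigned peak in any list. Sqstm1 (chr11:50200152-50210820, minus strand) encodes p62, an autophagy receptor that can displace NRF2 from KEAP1. It had no boundary peak, but a peak with its naive summit 2377 bases before the start, at chr11:50212969-50213384, was called in every list with 27, 24 and 17 tags. The ratios were 0.373 (0.206 to 0.671) at day 15 and 0.30 (0.154 to 0.572) at day 30.

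**Figure D3:**
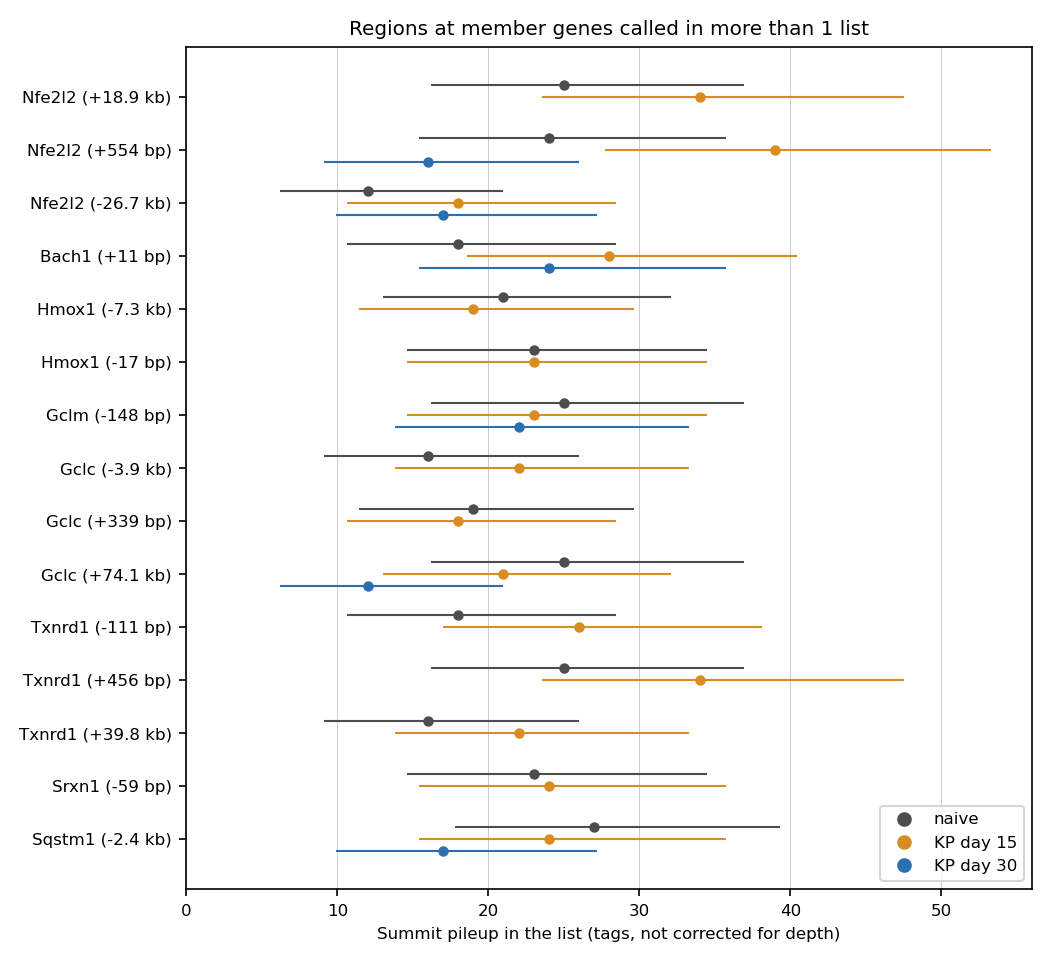
Summit pileup in tags, not corrected for depth, of the 15 member regions called in more than 1 list, with 95% Poisson intervals and, in brackets, the distance of the naive summit from a start. The day 15 pileup of 39 tags at the Nfe2l2 promoter is the highest. Intervals of these raw tags overlap between the naive and day 15 lists in every region, but the lists differ in depth, so the overlap does not compare pileup per depth.

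All 6 members with a naive boundary peak had one at day 15 and 3 of 6 at day 30, where the shares over all genes were 79.6% and 36.5%. By peaks, 15 of the 21 naive ones overlapped a day 15 peak and 6 a day 30 peak, against 64.1% and 21.7% of all naive peaks. Of the 17 day 15 peaks 2 had no naive counterpart, as did 12.8% of all day 15 peaks, and 6 overlapped a day 30 peak, against 28.7%. With so few members these counts lie near the background and set the members apart from no other genes.

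Over the 15 regions shared by the naive and day 15 lists, the median ratio per depth was 0.571, from 0.352 to 0.682, and 8 of 15 were above the median of all 9443 shared regions. The 8 were the 3 regions of Nfe2l2, the Bach1 promoter, the 3 regions of Txnrd1 and the Gclc region below the gene. The regions of Hmox1, Gclm, Srxn1 and Sqstm1 and the other Gclc regions were below it. Naive pileups ran from 12 to 25 tags in the 8 regions and from 19 to 27 in the other 7. The ratio varied with the naive pileup: its median was 0.559 over the 482 regions with 12 naive tags and 0.403 over the 275 with 25. Against regions of their own naive pileup, the 8 were at or above 70.1% to 99.0%, and the other 7 at or above 31.6% to 67.5%. By pileup per depth, no member region reached the naive value at day 15, as 0.402% of shared regions did. At day 30 0 of 6 did, against 0.251% of all, and 5 of the 6 were above the median, the Sqstm1 region by less than the rounding shown. From day 15 to day 30 2 of 6 member regions were at least as high per depth, the Gclm peak and the distal Nfe2l2 peak, against 10.8% of all. The direction turned for some regions with the other scaling, the authors' fold over local background. By fold, 5 of 15 member regions were at least as high at day 15 as in the naive list, against 11.9% of all shared regions: the Nfe2l2 promoter (1.21 times), the Bach1 promoter (1.17), the distal Nfe2l2 region (1.09) and both regions at inner Txnrd1 starts (1.09 and 1.07). At day 30 2 of 6 were at least as high as naive by fold, the Bach1 promoter (1.36) and the distal Nfe2l2 region (1.1), against 4.10% of all. From day 15 to day 30 3 of 6 were, the Bach1 promoter (1.16), the distal Nfe2l2 region (1.01) and Gclm (1.00), against 18.1%. Per depth, the intervals of all 15 day 15 ratios contain the median of 0.449. At day 30 the intervals of 2 of 6 ratios to naive lay above the median of 0.30, those of the Bach1 promoter (from 0.331) and of the distal Nfe2l2 region (from 0.304). Both contain the median of the regions with their own naive pileup, 0.398 for the Bach1 promoter and 0.537 for the distal Nfe2l2 region. No day 30 peak had fewer than 9 tags. With 12 naive tags, the distal Nfe2l2 region could therefore not be called at day 30 with a ratio as low as 0.30.

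**Figure D4:**
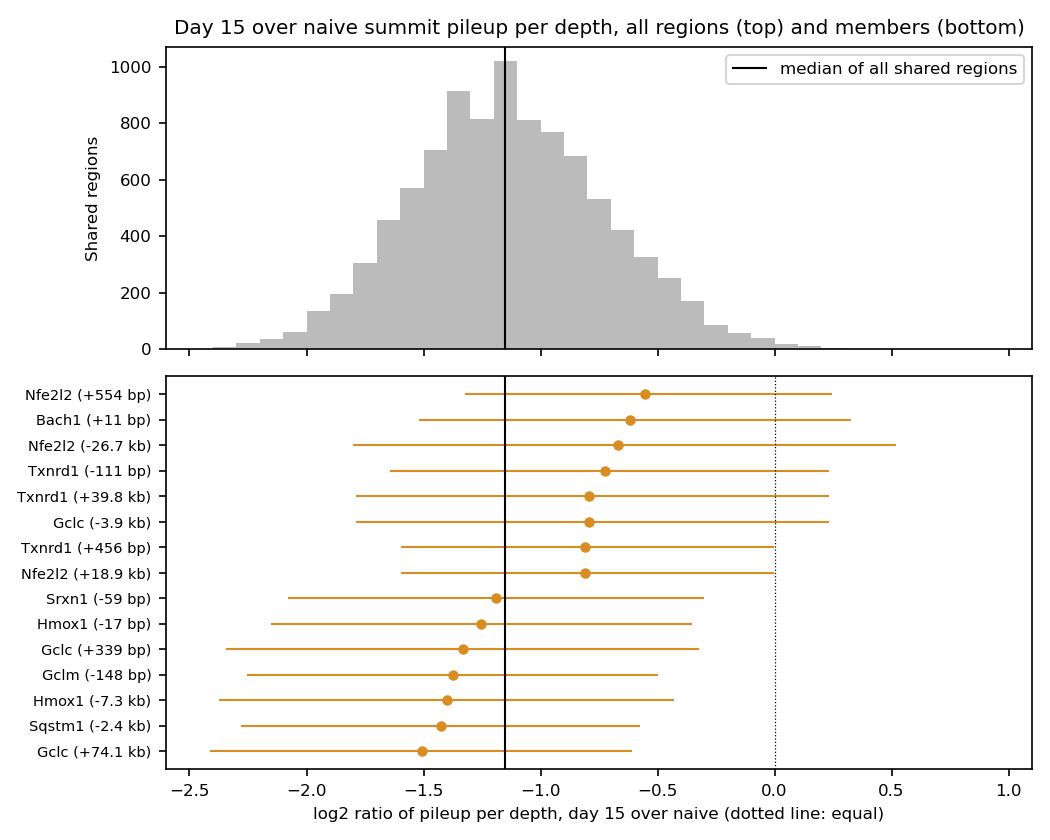
Day 15 over naive summit pileup per depth on a log2 axis: histogram of the 9443 shared regions (top) and the 15 member regions with 95% intervals (bottom), with the solid line at the median of all regions and the dotted line at equality. The regions of Nfe2l2, Bach1 and Txnrd1 and 1 of Gclc lie right of the median, and those of Hmox1, Gclm, Srxn1 and Sqstm1 and 2 of Gclc left of it (in brackets, the distance of the naive summit from a start).

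With the 3352 strongest peaks of each list, which makes the lists equally long, 3 members had a boundary peak in each list, and they were not the same genes. They were Hmox1, Gclm and Srxn1 in the naive list, Nfe2l2, Bach1 and Srxn1 at day 15, and Nfe2l2, Bach1 and Gclm at day 30. Over all protein-coding genes the day 30 share was 12.8%. The share at this cut is not given for the naive and day 15 lists, so the change of genes cannot be set against a background.

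A list of 62 further genes of the pathway was followed in the same way. Boundary peaks were found at 42 of them among naive peaks, 35 among day 15 peaks and 19 among day 30 peaks. These counts depend on the length of the lists: with the 3352 strongest peaks of each they were 13, 16 and 19, in the reverse order, and with only peaks of −log10 q of at least 5 the day 30 count was 10. For the 3352 strongest peaks, the share over all genes is not given in the naive and day 15 lists. For the cut on q it is not given in any list. Tags given are those of the strongest boundary peak of a gene. Between the naive list and day 15, 33 of 42 kept one, 9 lost it and 2 gained it, where 79.6% was the share kept over all genes. At day 30 19 of 42 were kept, 23 lost and 0 gained, where that share was 36.5%. The day 15 share is near that of all genes. In 18 genes no list had one, among them the cystine transporter gene Slc7a11, Gpx4, Gss, Alas1, Me1 and Osgin1.

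Regulators of NRF2 had 7, 5 and 4 of 9 genes. Nfe2l1, a close relative of NRF2, held 33, 31 and 17 tags, and Gsk3b, a kinase that marks NRF2 for degradation, held 56, 55 and 38. Btrc and Rbx1, parts of ubiquitin ligases that act on NRF2, were also in every list, with 34, 29 and 16 tags and 15, 22 and 18 tags. Cul3, the scaffold of the KEAP1 ligase, and the MAF partner gene Mafk had naive boundary peaks of 18 and 14 tags and none later. Glutathione genes had 6, 6 and 3 of 12, with the peroxidase gene Gpx1 at 37, 37 and 15 tags, and Mgst1 and Slc3a2 also in every list with 31, 31 and 19 tags and 16, 25 and 15 tags.

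Thioredoxin and peroxiredoxin genes had 6, 6 and 4 of 9. Txn1, the thioredoxin that Txnrd1 recycles, held 44, 47 and 34 tags, and Txn2 and Prdx6 were in every list with 17, 15 and 14 tags and 17, 21 and 13 tags. Prdx1 was gained at day 15 (19 tags), and Prdx5 was in the naive and day 30 lists by a peak nearest to Trmt112 (12 and 14 tags). The superoxide dismutase gene Sod2 held 39, 32 and 19 tags, while Sod1 had 16 naive and 14 day 30 tags and no day 15 peak.

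Heme and iron genes had 12, 10 and 4 of 17. The 4 genes in every list were Blvrb, a reductase of biliverdin, with 25, 34 and 19 tags, the ferritin light chain gene Ftl1 with 27, 25 and 17, the heme exporter gene Flvcr1 with 23, 29 and 14, and Fech, the last enzyme of heme synthesis, with 24, 16 and 13. Blvra (15 tags), the iron exporter gene Slc40a1 (13) and Fth1 (21, by a peak nearest to Best1) had a naive boundary peak and none later. Hmox2 was gained at day 15 with 15 tags. Genes that supply NADPH had 5, 4 and 1 of 6, with Pgd in every list at 23, 23 and 14 tags and G6pdx lost after a naive peak of 14 tags. Detoxification genes had 3, 2 and 1 of 6, with Ugdh in every list at 21, 22 and 14 tags and the exporter gene Abcc1 lost after 18 naive tags. The 9 naive peaks of the genes lost at day 15 held 12 to 21 tags, where the median of all naive peaks was 16.

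**Figure D5:**
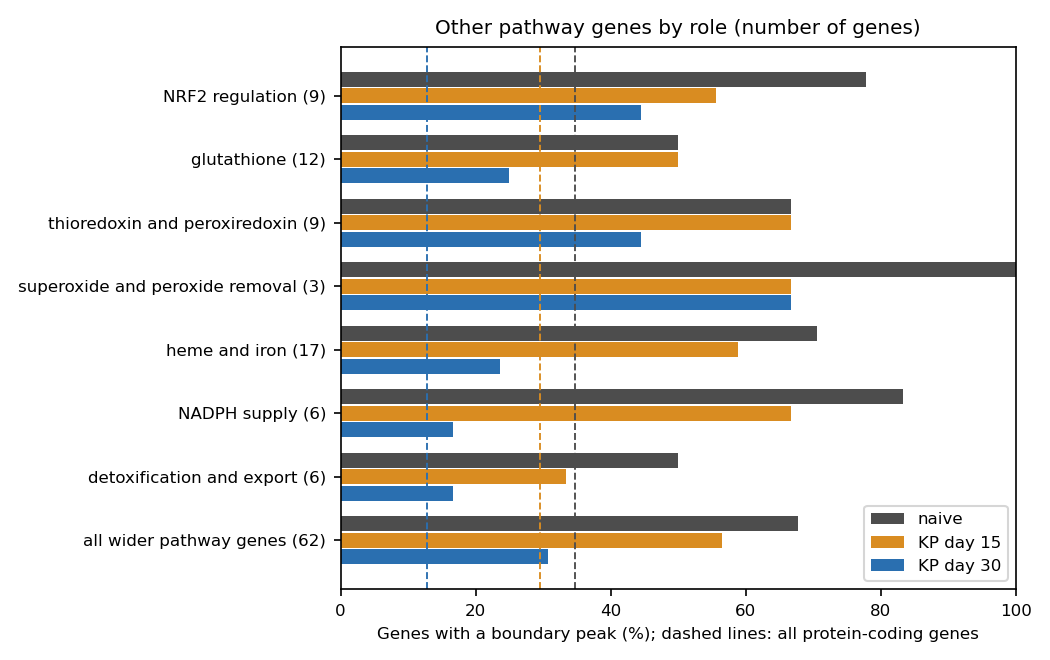
Share of genes with a boundary peak (x axis, %) in the 3 lists for the roles of the 62 further pathway genes, with dashed lines for all protein-coding genes. Over all 62 genes the shares are 67.7%, 56.5% and 30.6%, against 34.7%, 29.6% and 12.8%.

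Marker genes of the sort were checked in the same lists. Of 9 alveolar macrophage markers, Pparg, Itgax and Ear2 had a naive boundary peak only and Mrc1 a day 15 one only, and Siglecf, Marco, Car4, Fabp4 and Chil3 had none, so the counts were 3, 1 and 0 of different genes. Over all protein-coding genes 34.7%, 29.6% and 12.8% had a boundary peak in the naive, day 15 and day 30 lists. With 9 markers the fall is not read as a change of cell type. Of 6 general macrophage markers 5, 4 and 1 had one, with Cd68 in every list. None of 6 lung epithelial or 6 endothelial and fibroblast markers had one in any list. Of 5 neutrophil markers S100a8 had one in every list, of 4 monocyte markers Treml4 had one in the naive list, and of 5 lymphocyte markers Cd3d had one in the naive and day 15 lists. Their part in the results was not tested.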

How the data were processed

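Peak lists of 3 groups, 11 samples in all, were used, 1 list for each group as the labels give it. Bowtie2 2.3.4.1, MACS2 2.1.1 and mm10 are named in the submitters' processing notes. Settings, read filters, any shift of reads for the transposase and pooling of samples are not given in the sources used here. Columns have no header, and what each holds was read off its values: the authors deposited a score, which follows the q-value, a fold over local background, which is a ratio, and p-values and q-values on the −log10 scale.

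The pileup and local background were solved from the fold, as pileup plus 1 over background plus 1, and from the p-value, as the Poisson chance of a higher pileup. A whole number met the p of each peak within 0.001 on the −log10 scale. The lowest background of a list gave its depth, for tags of 200 bp and a window of 10 kb. Recovery was tested on simulated data. Poisson intervals are exact, and ratio intervals are exact binomial (Clopper-Pearson), both at 95%. Peaks overlapped when they shared 1 bp.

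Gene ends came from RefSeq (GRCm38.p6), and all 72 listed genes and 41 markers matched. All 10 members are named, with every assigned peak, and of the further genes those whose status differed between the naive and day 15 lists and those in every list, with examples of the absent ones chosen after their values were seen. Members and lists were chosen with earlier results of these data known. Alternatives were other windows, thresholds, overlaps and assignments. Python 3.11.15, numpy 2.4.6, pandas 2.3.3 and scipy 1.17.1 were used.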

Additional observations from a re-analysis of the deposited data

How the results depend on the processing

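No paired analysis was possible because each group has 1 peak list, and leaving out a sample was not possible for the same reason. Of 61 recomputed values, 51 stayed close to the reported one: counts within 1.5 times, median ratios within 1.1 times. With the 3352 strongest peaks of each list, members with a boundary peak came to 3, 3 and 3 (naive, day 15, day 30), further pathway genes to 13, 16 and 19, and peaks assigned to members to 5, 6 and 6, so the falling order of the reported counts was not kept. With only peaks of −log10 q of at least 5, further pathway genes at day 30 came to 10 and assigned peaks at day 30 to 3. With the authors' fold in place of pileup per depth, the median member ratio was 0.861 at day 15 and 0.680 at day 30, against 0.763 and 0.607 over all shared regions, and 5 of 15 and 2 of 6 regions turned from below to above naive. Counting RefSeq starts as well as gene ends, an alternative chosen after seeing the data, added Txnrd1 to give 7, 7 and 3 members. The share over all genes is not given for the cut on q or with these starts added. For the 3352 strongest peaks it is not given in the naive and day 15 lists. These counts are therefore not set against a background. A window of 500 or 2000 bp changed no member. With the nearest end of any gene in place of protein-coding genes, peaks assigned to members came to 17, 12 and 4. Naive pileups of 9 to 27 tags at member peaks limit the precision: beyond counting error, 0 of 15 ratios at day 15 and 2 of 6 at day 30 differed from the median of all shared regions. The intervals of these 2 contain the median of regions with their own naive pileup, 0.398 for the Bach1 promoter and 0.537 for the distal Nfe2l2 region. For the distal Nfe2l2 region the lowest pileup called at day 30 already kept the ratio above the median of all shared regions.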
